A study of Rattus norvegicus with 20 samples.

Results

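Milk fat RNA of rat dams collected 24 h after an injection of lipopolysaccharide (LPS) was compared with that collected 2 h after it. The comparison rests on 10 of the 20 libraries sequenced, 5 at each time, which were chosen by their labels. It covers 13711 of the 16748 genes in the deposited expression table, namely those above the table's lowest value in at least 1 of the 10 libraries. All dams were nursing Sprague-Dawley rats labelled Wild Type and given LPS, the endotoxin that Gram-negative bacteria carry on their surface, on postnatal day 10. The labels name neither the dose of LPS nor the age of the dams. The 2 h libraries were collected on postnatal day 10 and the 24 h libraries on postnatal day 11. Saline dams, injected and milked on the same schedule, are used below only to compare the change with time. The labels list 7 LPS dams, and 3 of them have a library at both times, but no value column says which dam it came from. Because each time has its own postnatal day, time after LPS, day of lactation and an earlier milking cannot be told apart. With dams shared between them, the libraries of both times are not fully independent.

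Milk fat is secreted by the luminal cells of the mammary alveolus as lipid droplets that bud from the cell inside an envelope of its own surface membrane. A sliver of cytoplasm is often enclosed with the droplet, and the messenger RNA in it reports on the milk-making cell without a biopsy. Prolactin drives milk protein genes through its receptor, the kinase JAK2 and the transcription factor STAT5, and ELF5 works beside them to keep the alveolar cell in its secretory state. LPS is sensed by Toll-like receptor 4 with its partners CD14 and MD-2, and the resulting NF-kB signal induces cytokines and chemokines that draw neutrophils into milk.

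The 5 libraries of each time resembled each other far more than those of the other time. The times separated on the first principal component (78.5% of the variance), and the second (4.98%) set 2 h libraries 2 and 5 apart from 2 h libraries 3 and 4. Pearson correlations across genes were 0.981 to 0.989 within the 2 h group, 0.978 to 0.990 within the 24 h group and 0.878 to 0.924 between them. These describe libraries, since genes are not independent replicates. Approximate depth, from the step between low values, was 37890000 to 93090000 reads at 2 h and 27670000 to 49840000 at 24 h, with 10819 to 11419 and 12147 to 12985 genes detected. At 2 h between 2 and 4 genes held 50% of all normalised counts, and at 24 h between 75 and 205 did. The sum of normalised counts was 60006231 to 99294934 at 2 h and 23930176 to 27600779 at 24 h, so a gene at an even normalised count takes a larger share of the library at 24 h.

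Of the 13711 genes, 7877 passed an adjusted p of 0.05 with limma (57.5%). At 24 h, 4613 were higher (33.6%) and 3264 lower (23.8%). These percentages are the background against which the counts of gene groups below stand. The libraries of the 2 times did not overlap for 5854 genes (42.7%). Among the genes that passed, 1772 were higher and 1262 lower by at least 1 on the log2 scale, 535 and 264 by at least 2, and 82 and 8 by at least 4. The median log2 difference over all genes tested was 0.12. The balance of directions follows the scaling between libraries. Of the calls, 58.6% were higher with the deposited scaling, 37.9% with each library centred on its median, 48.5% after quantile normalisation, 88.2% with libraries centred on ribosomal protein genes and 96.7% with each gene as a share of all counts. The median of all genes was -0.13, -0.01, 0.71 and 1.10 under these 4 alternatives. Differences below are on the deposited log2 scale, which compresses changes of rare genes, and directions that turn under another scaling are given beside the result or in the closing section. Levels are normalised counts with SD over 5 libraries, and errors of log2 differences are SE. In bulk RNA such as this, fewer cells of a type and less RNA per cell cannot be told apart.

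**Figure D1:**
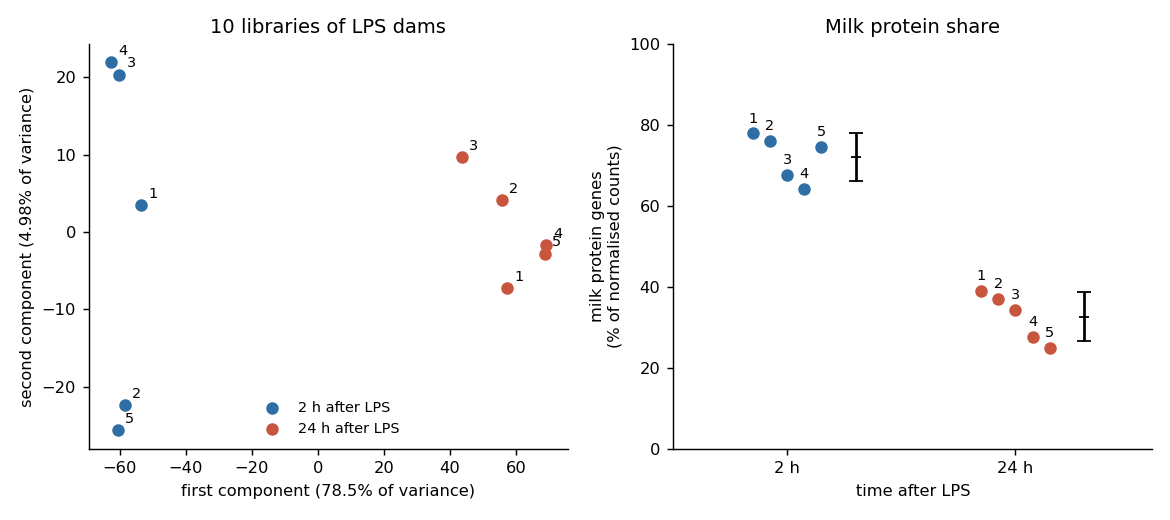
Left, the first and second principal components of the 10 LPS libraries (numbers are library numbers; blue, 2 h; red, 24 h), with the times separated on the first component (78.5% of variance). Right, the share of all normalised counts held by 20 milk protein genes in each library (%), with bars at the mean ± SD of 5 libraries, 72.1% at 2 h and 32.6% at 24 h.

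**Figure D2:**
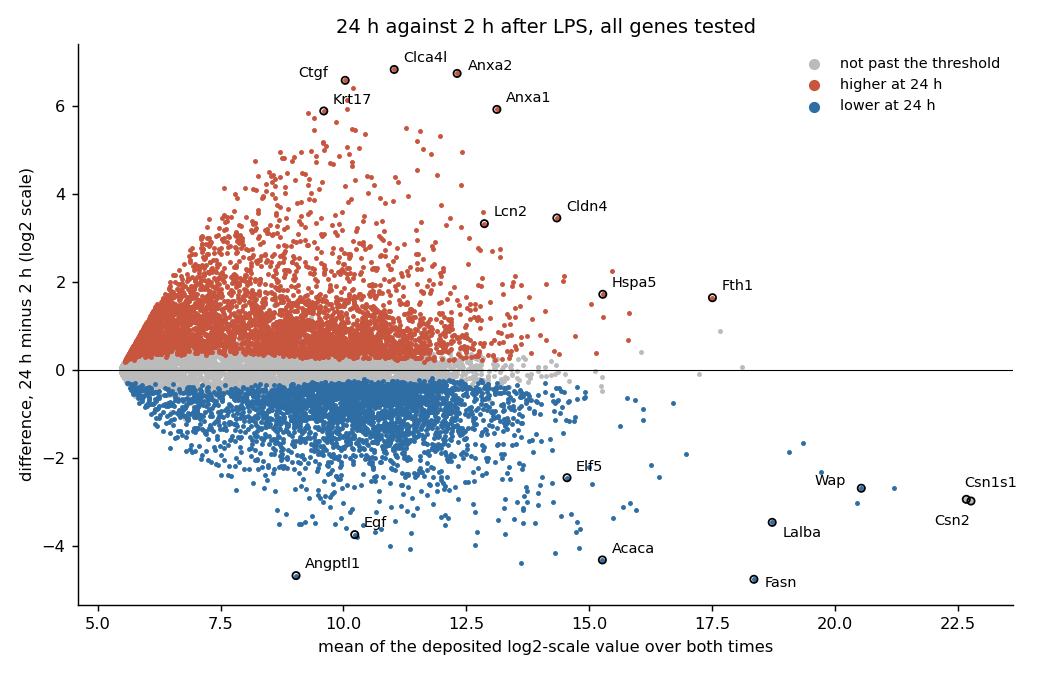
Log2 difference (24 h minus 2 h) of each of 13711 genes against its mean deposited log2-scale value over both times, where red and blue points passed limma's adjusted p of 0.05 and grey points did not. Clca4l, Anxa2 and Ctgf lie at the top with differences above 6, Fasn, Angptl1 and Acaca at the bottom, and Csn1s1 and Csn2 at the far right stay grey.

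Milk protein messages fell from most of the library to a minority of it. The 20 milk protein genes together took 77.9, 76, 67.7, 64.1 and 74.6% of normalised counts in 2 h libraries 1 to 5, and 38.9, 37.1, 34.4, 27.7 and 24.9% in the 24 h libraries. The mean share was 72.06% ± 5.874 at 2 h and 32.62% ± 6.069 at 24 h, a difference of -39.44 percentage points. An exact permutation test gave p = 0.007937 (two-sided), the smallest that 5 against 5 libraries can reach. The 5 casein genes alone went from 62.12% to 26.68% (exact permutation p = 0.007937). The groups did not overlap in either measure.

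Caseins carry the protein, calcium and phosphate of milk, and their genes lie in a cluster on rat chromosome 14. Normalised counts of Csn3 (kappa-casein, which coats the micelle) were 4923530, 5446770, 3214830, 2727330 and 4715230 at 2 h and 624661, 574527, 500460, 443363 and 395502 at 24 h. Every 24 h library was below every 2 h library, and Csn3 fell by 3.02 ± 0.56 (limma adjusted p = 0.000506). Csn1s2a, an alpha-s2-type casein, fell by 2.67 ± 0.75 from 6354328 ± 1869294 to 980477 ± 230390 (limma adjusted p = 0.00808). Its relative Csn1s2b fell by 2.32 ± 0.52 from 2074400 ± 875291 to 411672 ± 180587 (limma adjusted p = 0.00185). Csn2 (beta-casein) was at 22664900, 23781300, 14600300, 12065700 and 22680400 at 2 h and 2843880, 2992970, 2627890, 2108660 and 1722020 at 24 h. Its groups did not overlap, yet its difference of -2.94 ± 1.32 missed the threshold (limma adjusted p = 0.0741). Csn1s1 (alpha-s1-casein) likewise differed by -2.98 ± 1.38 without passing (limma adjusted p = 0.0814), with 13468500 to 25916400 normalised counts at 2 h and 1792050 to 3327780 at 24 h. Both SE come from limma's mean-variance trend, and without that trend both passed (limma adjusted p = 7.1e-07 for Csn2 and 1.3e-06 for Csn1s1). After quantile normalisation their differences were 0.02 and -0.02, and neither passed. That setting gives the same value to the same rank in every library. It therefore could not show a fall in the genes that rank highest at both times, as these do, and leaves little room for one just below them. Csn3, Csn1s2a and Csn1s2b also lost their calls after quantile normalisation, with differences of -0.35, -0.12 and -0.10, and when genes at the lowest value throughout were kept in the fit (limma adjusted p = 0.833 to 1). The share of all counts given above needs no variance trend.

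The promoters of 4 of these caseins are shown because each holds 1 copy of the STAT motif TTCNNNGAA, in capitals, between 97 and 102 bases before the transcript start. They come from RefSeq, build GRCr8, which is not the build of the expression data, and run 5′ to 3′ from 250 bases before the start to 50 after it. Csn1s1 is at chr14:20638800-20639099, Csn1s2a at chr14:20574422-20574721 and Csn1s2b at chr14:20545569-20545868, all on the minus strand, and Csn2 at chr14:20601574-20601873 on the plus strand.
Csn1s1: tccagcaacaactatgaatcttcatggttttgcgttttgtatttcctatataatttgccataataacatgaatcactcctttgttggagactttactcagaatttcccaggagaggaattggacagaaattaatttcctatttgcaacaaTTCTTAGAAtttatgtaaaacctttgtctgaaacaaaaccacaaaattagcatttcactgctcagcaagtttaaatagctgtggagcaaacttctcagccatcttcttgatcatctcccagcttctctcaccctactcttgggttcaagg
Csn2: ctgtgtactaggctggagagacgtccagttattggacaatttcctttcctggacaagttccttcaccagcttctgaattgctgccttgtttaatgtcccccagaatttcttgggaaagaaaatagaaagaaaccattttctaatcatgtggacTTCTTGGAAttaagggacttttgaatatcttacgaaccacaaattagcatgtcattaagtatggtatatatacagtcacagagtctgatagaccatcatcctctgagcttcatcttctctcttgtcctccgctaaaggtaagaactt
Csn1s2a: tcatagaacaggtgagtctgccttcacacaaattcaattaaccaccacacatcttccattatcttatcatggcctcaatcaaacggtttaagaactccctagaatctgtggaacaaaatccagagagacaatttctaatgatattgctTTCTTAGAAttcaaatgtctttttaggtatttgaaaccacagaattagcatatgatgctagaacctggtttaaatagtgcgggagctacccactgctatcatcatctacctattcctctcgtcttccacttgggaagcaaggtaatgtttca
Csn1s2b: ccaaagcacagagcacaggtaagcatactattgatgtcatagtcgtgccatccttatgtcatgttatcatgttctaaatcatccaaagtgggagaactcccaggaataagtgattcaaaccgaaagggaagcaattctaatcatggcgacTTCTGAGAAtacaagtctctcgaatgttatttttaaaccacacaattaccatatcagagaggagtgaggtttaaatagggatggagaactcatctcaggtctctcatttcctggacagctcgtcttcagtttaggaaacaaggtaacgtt
The motif reads the same on both strands. It was found in 7 of the 18 milk protein promoters in the RefSeq table (38.89%) and in 779 of the 10988 promoters of tested genes (7.09%). Among promoters of all genes that fell, 7.19% held it, and among those of genes that rose, 6.56%. A motif match describes the letters only.

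Other secreted milk proteins fell with the caseins. Wap (whey acidic protein) was at 5112350, 5510240, 2334130, 2421620 and 5328520 normalised counts at 2 h and 905755, 596646, 747949, 448940 and 421975 at 24 h, with no overlap, and fell by 2.69 ± 0.62 (limma adjusted p = 0.00235). Lalba, which encodes alpha-lactalbumin, the partner that turns a galactosyltransferase into lactose synthase, had 1710110, 1700450, 1321900, 944714 and 1677150 at 2 h. Its 24 h values were 202550, 202958, 167615, 72457 and 74662, lowest in libraries 4 and 5, and it fell by 3.46 ± 0.41 (limma adjusted p = 1.36e-05). Glycam1 fell by 1.87 ± 0.36 and Tf (transferrin, an iron carrier) by 1.65 ± 0.43 (limma adjusted p = 0.000614 and 0.00565), though Tf differed by 0.01 as a share of all counts and 0.10 after quantile normalisation. Lpo (lactoperoxidase, an antimicrobial enzyme) fell by 2.87 ± 0.21 from 35934 ± 7118 to 4972 ± 1444 (limma adjusted p = 3.14e-07). Wap and Glycam1 did not pass after quantile normalisation (-0.04 and -0.40), which leaves little room for change in genes near the top rank at both times. Of the 20 milk protein genes, 12 fell and 2 rose, and their median difference was -2.20. That median was negative under each scaling tried, -0.62 as a share of all counts and -0.32 after quantile normalisation. Of the genes that rose, Spp1 (osteopontin, also made by macrophages) went from 150 ± 200 to 2068 ± 1166 (log2 difference 3.51 ± 0.52, limma adjusted p = 8.69e-05). Ltf (lactoferrin) also passed, at 0 to 1.58 and 1.43 to 13.2 normalised counts, a level of a few reads (limma adjusted p = 0.043), and lost its call without any of 2 h libraries 2, 3 and 5 or 24 h libraries 1, 4 and 5 (limma adjusted p = 0.055 to 0.0993). Pigr, the receptor that carries immunoglobulin A across the epithelium into milk, fell by 3.11 ± 0.28 from 160788 ± 49168 to 18706 ± 6107 (limma adjusted p = 1.51e-06).

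**Figure D3:**
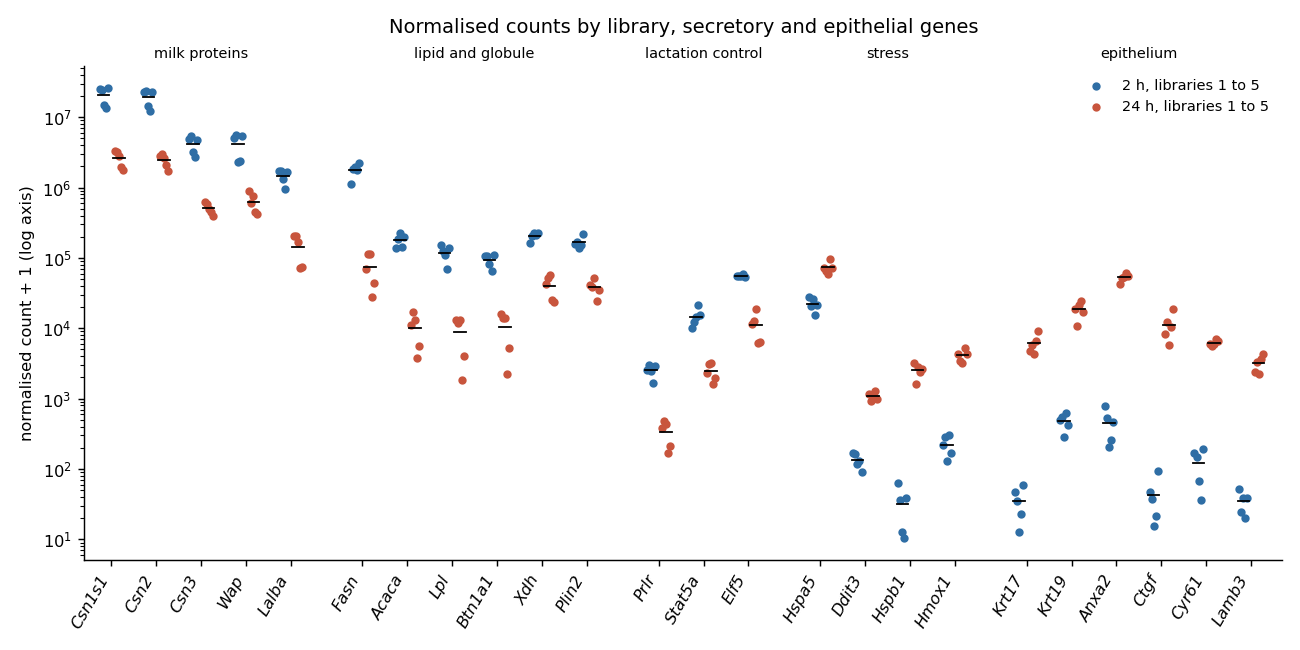
Normalised counts plus 1 (log axis) of genes for milk proteins, lipid and globule, lactation control, stress and epithelium in each 2 h library (blue) and 24 h library (red), with a black line at the mean. The milk, lipid and lactation genes are lower in all 5 libraries at 24 h, while the stress and epithelial genes plotted are higher in all 5.

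Genes that make fatty acids had the lowest median of all lists described. Of 22 fatty acid synthesis genes, 18 fell and 3 rose (median -2.88; -1.23 as a share of all counts, and negative under each scaling tried). Fasn (fatty acid synthase) had 1131510, 1833530, 1943110, 1751050 and 2246110 normalised counts at 2 h. At 24 h it had 70183, 113500, 112170, 27750 and 43721, a range that lay entirely below the 2 h range, and it fell by 4.76 ± 0.42 (limma adjusted p = 1.24e-06). Acaca (acetyl-CoA carboxylase, which makes the malonyl-CoA that Fasn uses) went from 139308, 188215, 227632, 144829 and 195111 to 10972, 16764, 12956, 3745 and 5660. That is a fall of 4.32 ± 0.35 with no overlap (limma adjusted p = 6.22e-07). The suppliers of acetyl-CoA fell as well, Acly (ATP citrate lyase) by 3.02 ± 0.25 and Acss2 (acetyl-CoA synthetase) by 3.01 ± 0.24 (limma adjusted p = 6.4e-07 and 5.92e-07). Me1 (malic enzyme, a source of NADPH) fell by 2.20 ± 0.24 (limma adjusted p = 7.24e-06). Srebf1 (SREBP-1, the main activator of these genes) fell by 3.19 ± 0.26 from 41387 ± 19464 to 4288 ± 1288, and Thrsp by 3.62 ± 0.39 (limma adjusted p = 7.44e-07 and 5.6e-06). The desaturases Scd and Fads2 fell by 3.08 ± 0.39 and 3.71 ± 0.29 (limma adjusted p = 2.54e-05 and 5.32e-07).

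The list of triglyceride assembly and fatty acid uptake split, with 9 of 23 genes lower, 9 higher and a median of 0.03 that turned negative with median centring and after quantile normalisation. Lpl (lipoprotein lipase, which frees fatty acids from blood lipoproteins) went from 150480, 124344, 109228, 69664 and 140029 at 2 h to 13138, 11783, 13114, 1834 and 3991 at 24 h, where libraries 4 and 5 were lowest. It fell by 4.05 ± 0.49 (limma adjusted p = 1.54e-05). Lpin1 (lipin-1, the phosphatidate phosphatase that makes diacylglycerol) fell by 3.97 ± 0.28 from 27977 ± 12955 to 1614 ± 454, and the transporter gene Slc27a3 differed by -3.58 ± 0.25 (limma adjusted p = 2.09e-07 and 1.66e-07). In the other direction, Agpat2 (a lysophosphatidate acyltransferase) was at 40.9, 27.8, 6.55, 22.4 and 8.93 at 2 h and 487, 356, 387, 702 and 630 at 24 h. It rose by 2.79 ± 0.21 without overlap (limma adjusted p = 3.49e-07). Slc27a4 (fatty acid transport protein 4) rose by 2.36 ± 0.19 from 1508 ± 348 to 8192 ± 2143 (limma adjusted p = 6.77e-07). Cholesterol synthesis genes fell less, 13 of 26 lower and 5 higher with a median of -0.50, which turned to 0.09 with ribosomal protein centring and 1.08 as a share of all counts. Idi1 (isopentenyl diphosphate isomerase) fell by 1.77 ± 0.12 (limma adjusted p = 1.57e-07).

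The envelope of the fat globule moved with the lipid enzymes. Of 14 genes for the globule membrane and droplet coat, 12 fell and 1 rose (median -2.34, negative under each scaling tried, -0.73 as a share of all counts). Btn1a1 (butyrophilin, a membrane protein needed for droplet release) was at 105430, 105915, 81081, 64426 and 110276 at 2 h and 15882, 14166, 14009, 2205 and 5257 at 24 h, lowest in 24 h libraries 4 and 5. It fell by 3.46 ± 0.46 (limma adjusted p = 3.63e-05). Xdh (xanthine oxidoreductase, which binds butyrophilin) went from 205050 ± 26425 to 39963 ± 15466 and Plin2 (perilipin-2, the coat of the droplet) from 167452 ± 31797 to 38165 ± 9812. Their falls were 2.44 ± 0.26 and 2.15 ± 0.21 (limma adjusted p = 6.27e-06 and 2.75e-06). Cidea, Cd36 and the mucin genes Muc15 and Muc1 fell, with differences of -3.38, -3.67, -3.48 and -2.23. The exception was Anxa5, an annexin that binds phosphatidylserine, which rose by 1.51 ± 0.09 from 3533 ± 201 to 10286 ± 1208 (limma adjusted p = 7.38e-08).

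Most genes of the prolactin pathway fell. Of 20 in the prolactin receptor and STAT5 list, 12 fell, 3 rose and 5 did not pass. Their median was -1.07 and turned to 0.47 as a share of all counts. Elf5 had 54789, 55757, 56031, 58870 and 53952 normalised counts at 2 h, within a narrow range, and 11592, 12818, 18605, 6116 and 6390 at 24 h. It fell by 2.45 ± 0.26 (limma adjusted p = 5.56e-06). Stat5a was at 10074, 12302, 14467, 21161 and 15228 at 2 h and 2337, 3138, 3219, 1600 and 1963 at 24 h, with no overlap, and fell by 2.54 ± 0.22 (limma adjusted p = 9.64e-07). Prlr, the prolactin receptor, fell by 2.69 ± 0.23 from 2517 ± 533 to 334 ± 136 (limma adjusted p = 1.11e-06). Bhlha15 (MIST1, a factor of secretory cells) fell by 4.01 ± 0.31 and Klf15 by 3.81 ± 0.29 (limma adjusted p = 4.5e-07 and 3.41e-07). The genes of this list that rose were Ptpn11 and feedback inhibitors of cytokine signalling, Socs3 by 1.97 ± 0.31 and Socs2 by 0.51 ± 0.16 (limma adjusted p = 0.000149 and 0.017). Socs2 did not pass with median centring (limma adjusted p = 0.187) or after quantile normalisation (0.982).

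Sugar, mineral and amino acid supply shifted unevenly. Of 15 lactose and sugar supply genes, 10 fell and 1 rose, and their median of -0.99 turned to 0.65 as a share of all counts. Ugp2, which makes UDP-glucose for lactose, fell by 2.33 ± 0.24 from 23286 ± 3449 to 4823 ± 1983 (limma adjusted p = 3.74e-06). Of 25 genes for ion and micronutrient transport, 11 fell and 7 rose, and their median of -0.44 turned to 0.15 with ribosomal protein centring and 1.06 as a share of all counts. Atp2b2 (PMCA2, the pump that moves calcium into milk) went from 57885, 73792, 57976, 36308 and 68438 at 2 h to 5628, 4633, 4219, 788 and 1411 at 24 h. It fell by 4.39 ± 0.46, and its groups did not overlap (limma adjusted p = 4.51e-06). The phosphate carrier gene Slc34a2 and the zinc and manganese importer gene Slc39a14 fell, with differences of -2.59 ± 0.29 and -3.52 ± 0.22 (limma adjusted p = 8.23e-06 and 7.69e-08). Of those that rose, the calcium pump gene Atp2b1 differed by 2.24 ± 0.22, the sodium, potassium and chloride cotransporter gene Slc12a2 by 1.51 ± 0.27 and the calcium channel gene Orai2 by 1.30 ± 0.24 (limma adjusted p = 2.85e-06, 0.00033 and 0.000428). The nucleoside transporter gene Slc28a3 fell by 4.15 ± 0.41 (limma adjusted p = 3.08e-06). Of 17 amino acid transporter genes, 9 rose and 4 fell. Slc1a1, a glutamate transporter, was at 1.44, 5.72, 2.17, 0 and 0 at 2 h and 321, 209, 222, 471 and 296 at 24 h (log2 difference 2.87 ± 0.19, limma adjusted p = 1.28e-07). Slc6a14, a broad amino acid transporter, rose by 3.10 ± 0.29 and Slc3a2, the heavy chain shared by several exchangers, by 1.73 ± 0.21 (limma adjusted p = 2.11e-06 and 1.35e-05).

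Breakdown of branched-chain amino acids, which the lactating gland burns for nitrogen and carbon, fell almost throughout. Of 18 genes, 17 fell and Bcat1, the cytosolic aminotransferase, rose by 1.19 ± 0.23 (limma adjusted p = 0.000566; median of the list -1.74, negative under each scaling tried, -0.21 as a share of all counts). This list, too, was added after values had been seen, and its counts are not independent evidence of a direction. Bcat2, the mitochondrial aminotransferase of the first step, was at 6459, 6630, 6067, 6373 and 6727 at 2 h and 1163, 1447, 1320, 1338 and 1078 at 24 h. Both ranges were narrow and far apart, and it fell by 2.28 ± 0.09 (limma adjusted p = 4.05e-09). Ivd (isovaleryl-CoA dehydrogenase) fell by 3.73 ± 0.32 and Aldh6a1 (methylmalonate semialdehyde dehydrogenase) by 3.69 ± 0.21 (limma adjusted p = 1.01e-06 and 3.32e-08).

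Gene families of the mitochondrion, ribosome and secretory pathway fell by smaller amounts, and the sign of their medians depends on the scaling. As a share of all counts the median of all genes was itself 1.10. Each median below stayed under that of all genes with every scaling, by -1.50 to -0.67 for the respiratory chain and -0.90 to -0.09 for cytosolic ribosomal proteins. Of 72 subunits of respiratory chain complexes I to V, 71 fell and none rose, with a median of -1.16 that became 0.43 as a share of all counts. Ndufb8, a complex I subunit, fell by 1.73 ± 0.13 from 3797 ± 303 to 1098 ± 243 (limma adjusted p = 3.31e-07). Of 66 cytosolic ribosomal proteins, 55 fell and none rose (median -0.61; 1.01 as a share of all counts). Mitochondrial ribosomal proteins had 49 of 67 lower and 3 higher (median -0.59; 0.94 as a share of all counts). In the list of the translocon and signal peptide processing, 23 of 31 fell and 3 rose (median -0.95; 0.68 as a share of all counts). In the COPI, COPII and Golgi list, 24 of 32 fell and 1 rose (median -0.77; 0.87 as a share of all counts). Sec61b, a subunit of the channel through which secretory proteins enter the endoplasmic reticulum, fell by 2.31 ± 0.20 from 8727 ± 701 to 1770 ± 653 (limma adjusted p = 8.18e-07). Sec23b, a COPII coat subunit, fell by 2.47 ± 0.16 (limma adjusted p = 1.16e-07). The gene that rose in the last list, Golgb1 (giantin, a Golgi tether), went from 1600 ± 353 to 4224 ± 938 (limma adjusted p = 2.65e-05).

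Chaperones of the same compartment went the other way. Of 26 genes of the unfolded protein response and folding in the endoplasmic reticulum, 15 rose and 4 fell, with a median of 0.60 that was positive under each scaling tried. Hspa5 (BiP, the central chaperone and stress sensor) was at 27701, 20628, 25836, 15434 and 21279 at 2 h and 71411, 64405, 59662, 98029 and 71920 at 24 h. The groups did not overlap, and it rose by 1.72 ± 0.18 (limma adjusted p = 5.62e-06). Hsp90b1 (GRP94) had 14300, 11692, 12892, 7336 and 10320 at 2 h and 43328, 42033, 37153, 57751 and 49328 at 24 h, and rose by 2.03 ± 0.18 (limma adjusted p = 1.28e-06). Hyou1 rose by 1.92 ± 0.17 and the membrane protein gene Ckap4 by 3.47 ± 0.22 (limma adjusted p = 1.24e-06 and 8.93e-08). Xbp1, a transcription factor of this response that also serves secretory cells, fell by 1.62 ± 0.20 from 25375 ± 7670 to 7959 ± 1385 (limma adjusted p = 2e-05), but its difference as a share of all counts was 0.03.

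The promoters of Hspa5 and Hsp90b1 are shown for the ER stress element, in capitals, which is CCAAT and CCACG with 9 bases of any kind between them and is bound by ATF6 with NF-Y. They are from RefSeq build GRCr8, Hspa5 at chr3:38452766-38453065 on the plus strand and Hsp90b1 at chr7:23012244-23012543 on the minus strand, each 5′ to 3′ along its gene.
Hspa5: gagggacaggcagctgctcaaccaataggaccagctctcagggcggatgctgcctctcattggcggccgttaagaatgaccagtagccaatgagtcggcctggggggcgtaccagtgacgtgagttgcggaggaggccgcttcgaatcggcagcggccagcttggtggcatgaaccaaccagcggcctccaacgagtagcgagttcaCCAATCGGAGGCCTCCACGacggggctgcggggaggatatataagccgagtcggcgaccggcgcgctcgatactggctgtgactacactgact
Hsp90b1: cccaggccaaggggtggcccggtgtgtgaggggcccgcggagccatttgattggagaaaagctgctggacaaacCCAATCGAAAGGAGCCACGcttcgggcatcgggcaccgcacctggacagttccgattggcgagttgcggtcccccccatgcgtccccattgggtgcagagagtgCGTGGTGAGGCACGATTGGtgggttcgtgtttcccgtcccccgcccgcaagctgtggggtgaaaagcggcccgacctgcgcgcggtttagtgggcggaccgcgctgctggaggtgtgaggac
In Hspa5 the element begins 43 bases before the start. Hsp90b1 has 2, beginning 176 and 72 bases before it, the second on the opposite strand. On either strand the element was in 8 of 19 promoters of the list (42.11%) and in 15 of all 10988 (0.14%). It was in 0.16% of promoters of genes that rose and 0.15% of those of genes that fell.

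The integrated stress response, which slows translation and induces ATF4 targets, had 13 of 22 genes higher and 5 lower (median 0.99). Ddit3 (CHOP, its death-promoting factor) was at 169, 164, 116, 128 and 90.7 at 2 h and 1148, 938, 1058, 1279 and 988 at 24 h, and rose by 2.47 ± 0.14 (limma adjusted p = 4.4e-08). Chac1, which degrades glutathione, was at 264, 311, 234, 198 and 205 at 2 h and 2595, 1650, 2057, 3735 and 3658 at 24 h. It rose by 3.07 ± 0.21 (limma adjusted p = 1.6e-07). Neither gene's groups overlapped. Mthfd2, a mitochondrial folate enzyme, rose from 32.2 ± 28.3 to 1420 ± 245, and Atf3 rose by 3.33 ± 0.36 (limma adjusted p = 5.03e-08 and 6.32e-06). Atf4 itself differed by -0.01 ± 0.12 and did not pass (limma adjusted p = 0.928), while it passed at 0.43 after quantile normalisation. Asns (asparagine synthetase), an ATF4 target, fell by 0.92 ± 0.09 from 10630 ± 868 to 5581 ± 407 (limma adjusted p = 3.19e-06), but its difference as a share of all counts was 0.73.

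Cytosolic chaperones and oxidant defence rose in part. Of 26 heat shock genes, 17 rose and 2 fell (median 0.62). Hspb1 (HSP27) went from 61.2, 35.3, 11.6, 9.6 and 38 normalised counts at 2 h to 3203, 1620, 2857, 2362 and 2608 at 24 h. The difference was 4.75 ± 0.22 with no overlap (limma adjusted p = 7.77e-09). Its relative Cryab (alphaB-crystallin) was at 0 to 14.5 at 2 h and 273 to 395 at 24 h, a difference of 2.83 ± 0.17 (limma adjusted p = 4.88e-08). The heat shock letters GAANNTTC were in 12 of 22 promoters of the list (54.55%) and 5.95% of all. Among NRF2 targets 13 of 28 rose and 9 fell. Hmox1 (haem oxygenase-1) was at 218, 279, 128, 300 and 170 at 2 h and 4288, 3373, 3178, 5296 and 4370 at 24 h and rose by 3.81 ± 0.19 (limma adjusted p = 1.22e-08). Fth1 (ferritin heavy chain) rose by 1.65 ± 0.21 from 106524 ± 19062 to 330443 ± 32155 (limma adjusted p = 2.92e-05). In the p53 and apoptosis list 19 of 31 rose and 3 fell. The p53 target Mdm2 rose by 1.34 ± 0.13 and Bbc3 (PUMA) by 1.94 ± 0.17 (limma adjusted p = 2.34e-06 and 9.48e-07). Proteasome subunits had 15 of 31 higher and 4 lower (median 0.24; -0.01 with median centring). In glycolysis, 12 of 21 rose and 8 fell, with Pfkp up by 3.24 ± 0.24 and Aldoc down by 3.31 ± 0.35 (limma adjusted p = 2.77e-07 and 5.4e-06).

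Several of the largest increases were in genes of the epithelial surface, cytoskeleton and attachment. Of 38 genes for the cytoskeleton and membrane linkers, 36 rose and none fell (median 2.53, positive under each scaling tried). This list was added after values had been seen, so its counts describe it and are not independent evidence of a direction. Anxa2 (annexin A2, which links membrane to actin) was at 783, 527, 201, 259 and 471 normalised counts at 2 h. At 24 h it was at 43136, 52309, 52734, 61800 and 54976, a rise of 6.75 ± 0.25 with libraries far apart (limma adjusted p = 2.93e-09). Anxa1 (annexin A1, a glucocorticoid-induced inhibitor of inflammation) went from 1157, 1912, 888, 496 and 1293 to 45877, 64853, 76855, 88959 and 79314 and rose by 5.93 ± 0.28 (limma adjusted p = 1.04e-08). The Anxa2 partner S100a10 rose by 3.46 ± 0.14 and S100a6 by 5.94 ± 0.31 (limma adjusted p = 4.71e-09 and 1.87e-08). Of 10 annexins, 8 rose and Anxa6 fell by 1.26 ± 0.23 (limma adjusted p = 0.000411), a direction that turned to 0.37 as a share of all counts. Msn (moesin) rose by 5.49 ± 0.23, Actn1 (alpha-actinin) by 4.44 ± 0.17 and Ahnak by 5.50 ± 0.31 (limma adjusted p = 4.86e-09, 2.93e-09 and 3.27e-08). Of 31 keratins, 18 rose and none fell. Krt17, a keratin of stressed epithelium, was at 46.2, 34.1, 11.6, 22.2 and 58.1 at 2 h and 4723, 5703, 4261, 6679 and 9273 at 24 h and rose by 5.89 ± 0.21 (limma adjusted p = 2.93e-09). Krt19 rose by 5.04 ± 0.22 from 477 ± 127 to 18529 ± 5124 (limma adjusted p = 5.6e-09).

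Target genes of YAP and TEAD, which respond to cell shape and tension, included some of the largest rises. Of 29, 19 rose and 2 fell (median 1.17). Ctgf (connective tissue growth factor) had 46, 36.4, 14.5, 20.6 and 91.5 normalised counts at 2 h and 8409, 12089, 5691, 10269 and 18673 at 24 h, and rose by 6.59 ± 0.29 (limma adjusted p = 5.65e-09). Cyr61, a related matrix protein, was at 170, 145, 65.8, 34.8 and 192 at 2 h and 5909, 5660, 5963, 6951 and 6541 at 24 h and rose by 5.07 ± 0.23 (limma adjusted p = 7.77e-09). In both, 2 h libraries 3 and 4 were lowest and all 24 h libraries were higher. Tead2, a TEAD factor itself, rose by 4.48 ± 0.14 and Tnfrsf12a, the TWEAK receptor, by 4.88 ± 0.20 (limma adjusted p = 1.97e-09 and 4.86e-09). The list was added after values had been seen, so its counts describe it and are not independent evidence of a direction.

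The promoters of Anxa2 and Ctgf, genes of the 12 largest increases, are shown with their AP-1 motif TGANTCA (Anxa2) and TEAD motifs GGAATG (Ctgf) in capitals. AP-1 is the dimer of FOS and JUN family factors. They are from RefSeq build GRCr8, Anxa2 at chr8:78986002-78986301 on the plus strand and Ctgf at chr1:22624565-22624864 on the minus strand, 5′ to 3′ along each gene.
Anxa2: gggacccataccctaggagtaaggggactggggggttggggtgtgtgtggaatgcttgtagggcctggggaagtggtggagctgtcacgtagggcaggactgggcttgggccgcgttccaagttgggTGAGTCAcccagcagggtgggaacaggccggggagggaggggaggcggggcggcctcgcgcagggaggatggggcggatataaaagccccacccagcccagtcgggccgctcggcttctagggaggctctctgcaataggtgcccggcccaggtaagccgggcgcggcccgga
Ctgf: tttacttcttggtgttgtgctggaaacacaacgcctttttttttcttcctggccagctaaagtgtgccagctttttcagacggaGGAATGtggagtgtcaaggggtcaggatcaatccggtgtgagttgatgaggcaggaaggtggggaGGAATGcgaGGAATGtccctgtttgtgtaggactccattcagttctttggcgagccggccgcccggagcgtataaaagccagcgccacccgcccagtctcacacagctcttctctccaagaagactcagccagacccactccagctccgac
The Anxa2 window also holds GGAATG, left in lower case. The AP-1 letters in Anxa2 begin 123 bases before the start, and the 3 TEAD copies in Ctgf begin 166, 101 and 92 bases before it. On either strand, GGAATG was in 9 of 23 promoters of the YAP and TEAD list (39.13%), 10 of 27 chemokine promoters (37.04%), 11.89% of all, 12.09% of genes that rose and 11.8% of genes that fell. TGANTCA was in 5.57% of all promoters, in 7.18% of genes that rose, in 4.13% of genes that fell, and in 46 of 409 genes that rose by at least 2 on the log2 scale (11.25%). It was in 13 of the 214 that fell by at least 2 (6.07%). GGAATG was in 58 of those 409 (14.18%) and in 33 of those 214 (15.42%). The motifs were added after values had been seen. The STAT and heat shock patterns share the letters TTC and GAA and can overlap, as can the ends of the TEAD and AP-1 patterns.

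Attachment genes, and barrier genes in part, rose with the cytoskeleton. Of 11 laminin and hemidesmosome genes, 8 rose and 1 fell. This family was added after values had been seen, so its counts only describe it. Lamb3, a laminin chain of the basement membrane, was at 50.2, 23.1, 37.5, 18.9 and 38 at 2 h and 2379, 3277, 2208, 3662 and 4253 at 24 h, with no overlap. It rose by 4.96 ± 0.19 (limma adjusted p = 2.93e-09). Of 20 integrins, 14 rose and 3 fell. Itgb4, the integrin of hemidesmosomes, rose by 2.64 ± 0.22, and Itgb8 by 3.30 ± 0.22 (limma adjusted p = 6.64e-07 and 1.49e-07). Of 19 claudins, the strands of tight junctions, 10 rose and 3 fell. Over the scalings their median lay -0.54 to 0.60 from that of all genes. Cldn4 was at 5374, 13980, 2927, 3973 and 10094 at 2 h and 66864, 65462, 57190, 80711 and 76000 at 24 h, a rise of 3.46 ± 0.35 (limma adjusted p = 3.52e-06), and Cldn7 rose by 2.34 ± 0.11 (limma adjusted p = 7.09e-09). Cldn8 fell by 2.71 ± 0.34 from 11152 ± 3215 to 1753 ± 876 (limma adjusted p = 2e-05). Of 22 matrix metalloproteinases and inhibitors, 14 rose and 2 fell, with Timp1 up by 4.32 ± 0.22 and Mmp14 by 3.18 ± 0.24 (limma adjusted p = 1.7e-08 and 3.41e-07). The median of this family lay -0.64 to 2.15 from that of all genes over the scalings.

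Among growth factors, Egf (epidermal growth factor, a milk component) fell, while other ligands of its receptor rose. Egf was at 4863, 4599, 3629, 3136 and 5803 normalised counts at 2 h and 264, 273, 304, 192 and 212 at 24 h, a fall of 3.74 ± 0.16 with no overlap (limma adjusted p = 5.65e-09). Hbegf was at 413, 156, 300, 106 and 127 at 2 h and 1964, 3161, 1992, 3450 and 3079 at 24 h, a rise of 3.30 ± 0.27 (limma adjusted p = 7.24e-07). Tgfa rose by 3.08 ± 0.20 from 14.6 ± 8.28 to 574 ± 156 (limma adjusted p = 8.9e-08). Areg (amphiregulin) was listed at 0 in all 2 h libraries and at 6.8, 21.6, 32.4, 19.6 and 45.9 at 24 h (log2 difference 1.02 ± 0.14, limma adjusted p = 3.43e-05). Erbb4, a receptor that signals to STAT5 in the lactating gland, fell by 1.85 ± 0.21 from 166 ± 58.9 to 9.54 ± 5.44 (limma adjusted p = 9.73e-06).

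Other genes of the 12 largest increases were Clca4l, Cdhr1, Aldh1a3, Gpx2 and Emp1. Clca4l, a member of the calcium-activated chloride channel regulators, was at 94.8, 148, 69.3, 112 and 190 at 2 h and 20487, 37620, 13061, 30671 and 17902 at 24 h. It had the largest rise of all named genes, 6.84 ± 0.26 (limma adjusted p = 2.93e-09). Cdhr1, a protocadherin gene, rose by 6.41 ± 0.27 and Aldh1a3, which makes retinoic acid, by 6.13 ± 0.30 (limma adjusted p = 4.93e-09 and 1.2e-08). Gpx2 (an epithelial glutathione peroxidase) rose by 5.85 ± 0.32 and Emp1 (epithelial membrane protein 1) by 5.65 ± 0.31 (limma adjusted p = 2.72e-08 and 2.45e-08). Among the largest falls outside lipid synthesis, Angptl1, of the angiopoietin-like family, was at 3280, 3384, 1431, 1511 and 4557 at 2 h and 66.1, 45.9, 63.7, 10.6 and 12.5 at 24 h. It fell by 4.67 ± 0.33 (limma adjusted p = 1.86e-07). Enpp2 (autotaxin) fell by 4.07 ± 0.61 from 13456 ± 10965 to 846 ± 1038 (limma adjusted p = 9.18e-05).

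**Figure D4:**
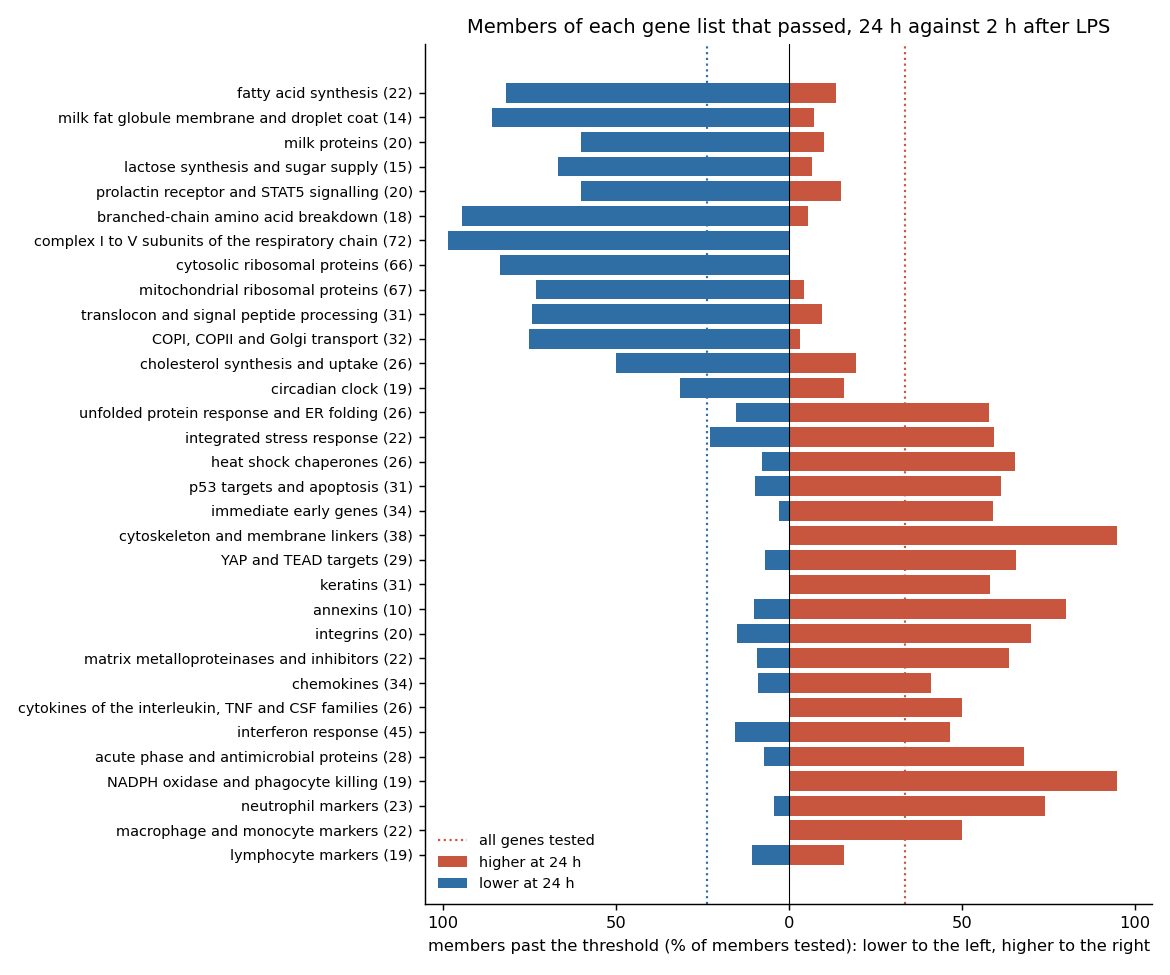
Share of tested members of 32 gene lists and families that passed (% of members tested, number in brackets), lower at 24 h to the left and higher to the right, with dotted lines at the shares of all genes tested (23.8% lower, 33.6% higher). Respiratory chain, branched-chain amino acid and globule genes reach furthest left, and cytoskeletal linkers and phagocyte killing genes furthest right. The branched-chain amino acid and cytoskeletal linker lists were added after values had been seen.

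Immediate early genes, which cells switch on within minutes of a stimulus, had 20 of 34 members higher and 1, Nr4a3, lower (median 1.05). Fosl1 (FRA-1, an AP-1 subunit) was at 47.6, 15.2, 9.4, 11.1 and 11.2 at 2 h and 1825, 2027, 1869, 2906 and 2564 at 24 h, and rose by 4.83 ± 0.18 (limma adjusted p = 2.93e-09). Klf4 rose by 2.92 ± 0.21 and Ier3 by 3.85 ± 0.21 (limma adjusted p = 2.31e-07 and 3.21e-08). Fos did not pass. It was at 2027, 2891, 230, 324 and 1907 at 2 h, with libraries 1, 2 and 5 high, and at 1091, 618, 629, 675 and 591 at 24 h, a difference of -0.48 ± 0.56 (limma adjusted p = 0.482) that turned to 0.11 with ribosomal protein centring and 1.09 as a share of all counts. Dual-specificity phosphatases, which switch off MAP kinases, had 12 of 18 higher and 1 lower, with Dusp1 up by 3.47 ± 0.44 (limma adjusted p = 2.26e-05).

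The 2 h libraries were not alike in genes of the acute response. Libraries 2 and 5 stood above the others in Cebpd (C/EBP-delta), with 1734, 10680, 579, 949 and 15872 normalised counts, against 1861, 1459, 1837, 1826 and 1194 at 24 h. Nfkbia (IkB-alpha, an NF-kB target that restrains it) was at 2343, 6919, 2369, 3767 and 11222 at 2 h, again highest in libraries 2 and 5, and at 2743, 2692, 2949, 2513 and 1840 at 24 h. Stat3 was at 6949, 17445, 5107, 6223 and 10668 at 2 h and 9532, 8117, 7736, 9142 and 8637 at 24 h. The times overlapped in all 3 genes, and none passed, with differences of -0.79 ± 0.74, -0.79 ± 0.37 and 0.04 ± 0.27 (limma adjusted p = 0.39, 0.0845 and 0.907). Nfkbia passed as lower without 2 h library 1 or 3 (limma adjusted p = 0.0297 and 0.0319) and with median centring (0.0287), but as higher when taken as a share of all counts (0.84, adjusted p = 0.0432). Cebpd also turned to 0.84 as a share of all counts, without passing. Stat3 turned to -0.21 with median centring, and passed as higher with ribosomal protein centring (0.63) and as a share of all counts (1.69). Angptl4 was also highest at 2 h in libraries 2 and 5, at 179, 2033, 241, 208 and 3570, and at 6018, 2693, 4448, 5501 and 5683 at 24 h. It rose by 2.74 ± 0.68 (limma adjusted p = 0.00374). Of 32 NF-kB and Toll-like receptor genes, 11 rose and 8 fell, both shares near the background (median 0.14; -0.11 with median centring). Of the LPS receptor complex, Cd14 rose by 2.59 ± 0.39 from 740 ± 539 to 4271 ± 1192 and Tlr4 rose from 214 ± 72.2 to 753 ± 236 (limma adjusted p = 9.44e-05 and 0.000122). Ly96, which encodes MD-2, fell by 1.57 ± 0.23 from 1311 ± 407 to 389 ± 128 (limma adjusted p = 9.5e-05).

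Chemokines for neutrophils and an antagonist of interleukin-1 were higher at 24 h. These genes also rose with time in saline dams. There Cxcl1, Cxcl3, Cxcl2, Il1rn and Il1b rose by 4.03, 4.98, 3.61, 4.02 and 3.24. Without saline library 2 of postnatal day 11, described below, they rose by 4.87, 5.93, 4.47, 4.93 and 4.13. None of them passed for a difference of the time effect between LPS and saline dams (limma adjusted p = 0.968 to 0.997, or 0.434 to 0.794 without that library). Of 34 chemokines, 14 rose and 3 fell, and of 26 cytokines 13 rose and none fell. Of all genes tested, 33.6% were higher and 23.8% lower. Over the scalings, the chemokine median lay -0.70 to 0.81 from the median of all genes, and the cytokine median -0.25 to 0.75. Cxcl1 was at 59.7, 74.6, 21.1, 49.6 and 174 normalised counts at 2 h and at 2485, 2857, 2825, 2949 and 2643 at 24 h, where the libraries lay close together. It rose by 4.34 ± 0.23 (limma adjusted p = 1.74e-08). Cxcl3 rose by 4.92 ± 0.38 from 158 ± 139 to 6363 ± 2294, and Cxcl2 by 2.81 ± 0.41 from 143 ± 119 to 1273 ± 460 (limma adjusted p = 3.69e-07 and 7.23e-05). Cxcl16, a membrane-bound chemokine, was at 162, 242, 135, 200 and 219 at 2 h and 5349, 4516, 4778, 7382 and 4857 at 24 h, and rose by 4.32 ± 0.15 (limma adjusted p = 2.72e-09). Ccl28, which draws antibody-secreting cells into the lactating gland, fell by 3.68 ± 0.36 from 5833 ± 1527 to 436 ± 284 (limma adjusted p = 3.01e-06). Il1rn, the interleukin-1 receptor antagonist, was at 568, 235, 88.2, 91.9 and 389 at 2 h and 6267, 6890, 4504, 8593 and 6895 at 24 h. It rose by 4.42 ± 0.35 (limma adjusted p = 4.81e-07). Il1b itself was at 175, 94.5, 14.5, 52.5 and 159 at 2 h and 1469, 1641, 117, 305 and 351 at 24 h, where library 3 lay within the 2 h range, and it rose by 1.95 ± 0.56 (limma adjusted p = 0.00961). Il24 rose by 1.70 ± 0.21 and the receptor genes Il4r and Osmr by 3.40 ± 0.23 and 2.91 ± 0.20 (limma adjusted p = 2.1e-05, 1.25e-07 and 1.74e-07). Il6 was listed at 0 in all 2 h libraries and at up to 4.43 normalised counts at 24 h, and did not pass (limma adjusted p = 0.225). The interleukin-18 receptor gene Il18r1 fell by 0.79 ± 0.20 from 433 ± 144 to 208 ± 29.1 (limma adjusted p = 0.00429), and differed by 0.57 as a share of all counts.

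**Figure D5:**
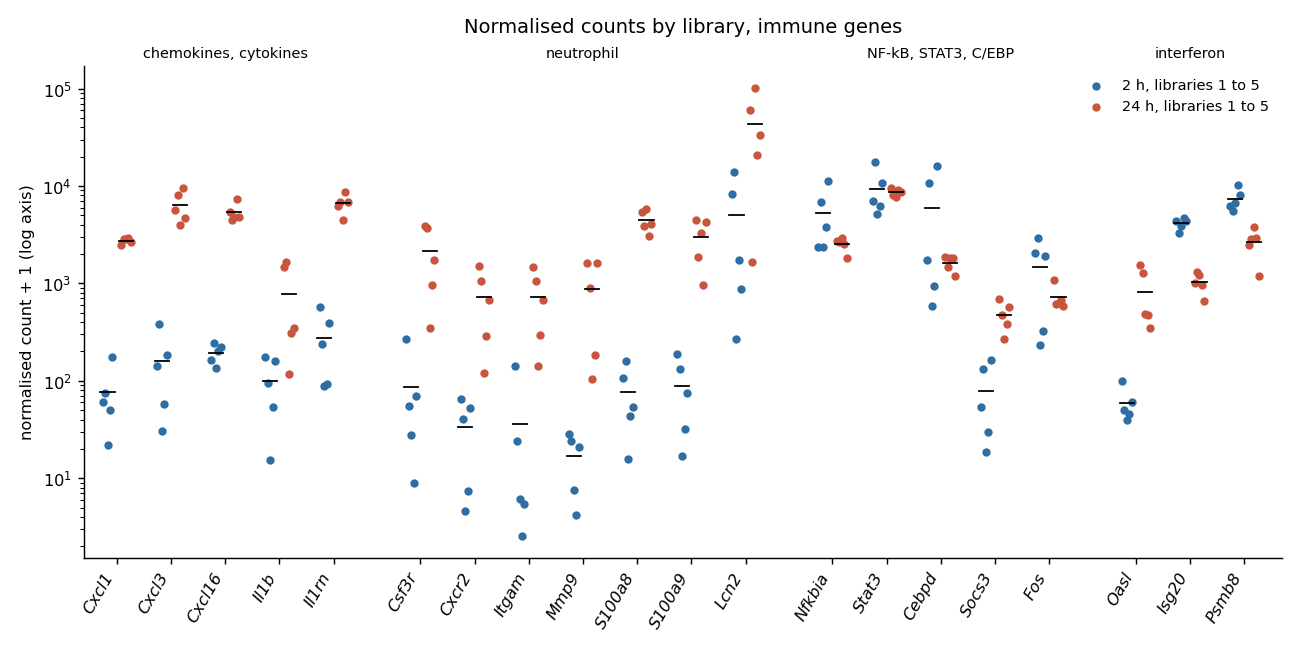
Normalised counts plus 1 (log axis) of chemokine, cytokine, neutrophil, NF-kB, STAT3, C/EBP and interferon genes in each 2 h library (blue) and 24 h library (red), with a black line at the mean. Cxcl1, Cxcl16 and S100a8 separate fully by time, while Nfkbia, Stat3, Cebpd and Fos overlap, with some 2 h libraries above all 24 h values.

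Neutrophil markers were higher at 24 h and uneven between libraries. Of 23 tested, 17 rose and 1 fell (median 1.14), namely Ly6g6e, which is not the neutrophil antigen gene Ly6g. Their summed normalised counts were 9655, 14589, 499, 2040 and 1413 in the 2 h libraries and 84622, 17989, 111846, 27940 and 49373 in the 24 h libraries. Lcn2 (lipocalin-2, which epithelium makes too) held most of that sum in every library but 24 h library 2, at 8296, 13901, 269, 1729 and 884 at 2 h and 59733, 1676, 101393, 20821 and 33268 at 24 h. Lcn2 rose by 3.33 ± 1.13 although its groups overlapped (limma adjusted p = 0.0232). Its call was lost without 2 h library 3 or 5, or without 24 h library 1 or 3 (limma adjusted p = 0.0508 to 0.0602). Without Lcn2 the sums were 1359, 687, 230, 311 and 529 against 24889, 16313, 10453, 7119 and 16105, with no overlap. Csf3r, the receptor for the neutrophil growth factor G-CSF, was at 267, 53.8, 26.7, 7.9 and 69.2 at 2 h and 3922, 3727, 351, 973 and 1731 at 24 h. It rose by 3.66 ± 0.59 (limma adjusted p = 0.000166). Cxcr2, the receptor for Cxcl1 and its relatives, was at 63.6, 39.7, 3.62, 6.36 and 51.3 and 1512, 1067, 120, 290 and 670, and rose by 2.77 ± 0.50 (limma adjusted p = 0.000393). In both receptor genes 24 h libraries 1, 2 and 5 were high and 3 and 4 low. S100a8 and S100a9, the subunits of calprotectin, rose by 5.01 ± 0.28 and 4.20 ± 0.42 (limma adjusted p = 2.75e-08 and 3.52e-06). S100a8 was at 5405, 3888, 5787, 3033 and 4096 at 24 h, without the gap that Csf3r and Cxcr2 showed. Of 19 genes for the NADPH oxidase and phagocyte killing, 18 rose and none fell (median 1.74), with Cyba up by 1.65 ± 0.17 and Ncf1 by 1.64 ± 0.27 (limma adjusted p = 4.48e-06 and 0.00018). In saline dams the median change with time was 0.87 for the neutrophil markers and 2.22 for the phagocyte killing list.

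Macrophage markers rose in part, and lymphocyte markers were scarce. Macrophage and monocyte markers had 11 of 22 higher and none lower, with sums of 2207 to 4339 at 2 h and 7882 to 18004 at 24 h. Cd68 rose by 1.77 ± 0.25 from 33.3 ± 30.4 to 251 ± 78.9 (limma adjusted p = 5.39e-05). Csf1r, the receptor that defines the lineage, was at 102, 34.6, 44, 31.6 and 42.4 at 2 h and 104, 119, 38.1, 80.8 and 184 at 24 h and did not pass (limma adjusted p = 0.0663), though it passed without 2 h library 1 (0.0216) or 24 h library 3 (0.0129). Lymphocyte markers summed to 203 to 276 at 2 h and 271 to 512 at 24 h, and 7 of them were at 0 in all 2 h libraries and 4 in all 24 h libraries. Of 19 tested, 3 rose and 2 fell. Those that rose were Cd4, by 0.75 ± 0.23, Ncr1, a receptor of natural killer cells, by 1.06 ± 0.29, and Icos, by 0.43 ± 0.15 (limma adjusted p = 0.0119, 0.00655 and 0.0252). None of these 3 passed after quantile normalisation, and Icos also lost its call without any of 2 h libraries 2, 3 and 5 or 24 h libraries 2, 4 and 5 (limma adjusted p = 0.051 to 0.0669). The T cell receptor partners Cd3e and Cd3g fell by 0.65 ± 0.14 and 1.03 ± 0.16, at 24.2 ± 8.86 and 40.4 ± 14 normalised counts at 2 h (limma adjusted p = 0.00155 and 0.000143). MHC class II genes had 1 of 12 higher and 3 lower. Red cell and platelet markers summed to 494 to 1000 and 458 to 707. Of 11, Slc4a1, Epb42 and Ppbp rose and 2 fell. Hba1, an alpha-globin gene, fell by 2.08 ± 0.37 from 297 ± 211 to 17.4 ± 12.6 (limma adjusted p = 0.000373).

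The labelled source, milk fat, was checked against markers of the luminal epithelium that secretes it. They summed to 128308 to 155202 normalised counts at 2 h and 245595 to 292503 at 24 h, and none of the 20 was at 0 throughout a group. Of the 20, 11 rose and 5 fell. Krt8 and Krt18, the keratins of simple epithelium, rose by 1.96 ± 0.18 and 1.45 ± 0.12, and Epcam and Cdh1, adhesion proteins of epithelial cells, by 2.13 ± 0.19 and 2.74 ± 0.19 (limma adjusted p = 1.4e-06, 6.92e-07, 1.17e-06 and 1.98e-07). Those that fell included Elf5, Prlr and Muc1, described above. Myoepithelial markers rose in 7 of 13 and fell in 1, and summed to 1411 to 2567 and 12746 to 20614. Acta2 (smooth muscle actin) made up most of that sum, at 1121, 1122, 1355, 1919 and 913 at 2 h and 8961, 9702, 7124, 11167 and 10590 at 24 h, a rise of 2.83 ± 0.18 (limma adjusted p = 7.56e-08). Krt17, described above and also in this list, made up most of the rest at 24 h, with a mean of 6128. Over the scalings the median of the list lay -0.36 to 1.38 from that of all genes. The defining basal keratin Krt5 was at 15.9, 3.79, 12.3, 3.17 and 4.46 at 2 h and 20.4, 13.8, 19.1, 14.2 and 11.8 at 24 h and did not pass (limma adjusted p = 0.0603), though it passed without 2 h library 1 (0.0218) or 3 (0.046). Krt14 rose by 2.24 ± 0.43 to 328 ± 249 (limma adjusted p = 0.000668). Oxtr, the oxytocin receptor, was listed at 0 at 2 h and at 9.31, 6.66, 5.76, 14.9 and 9.31 at 24 h (limma adjusted p = 1.86e-05). Skin keratinocyte markers summed to 67 to 145 and 1302 to 2541, of which Sbsn (suprabasin) was at 1163 to 2365 at 24 h, and 5 and 3 of the markers were at 0 in all libraries of a time. Fibroblast and adipocyte markers summed to 177 to 701 and 398 to 842, and endothelial markers to 361 to 1781 and 1034 to 2010. The part of leukocytes and of other cell types in the epithelial, chemokine and stress results was not tested.

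Interferon genes moved both ways. Of 45, 21 rose and 7 fell (median 0.74, and 1.21 in saline dams). Oasl, an antiviral protein, was at 98, 49.6, 38.3, 44.3 and 60.3 at 2 h and 1528, 1275, 480, 470 and 349 at 24 h, highest in libraries 1 and 2, and rose by 2.60 ± 0.34 (limma adjusted p = 3.04e-05). Gbp2, a guanylate-binding protein, rose by 3.14 ± 0.46 from 37.2 ± 38.3 to 946 ± 671 (limma adjusted p = 8.24e-05). The exonuclease gene Isg20 was at 4405, 3296, 3892, 4742 and 4409 at 2 h and 997, 1313, 1224, 952 and 663 at 24 h and fell by 1.95 ± 0.16 (limma adjusted p = 7.68e-07). Psmb8, an immunoproteasome subunit, fell by 1.49 ± 0.26 from 7327 ± 1850 to 2643 ± 935 (limma adjusted p = 0.00029), and its difference as a share of all counts was 0.13. Acute phase and antimicrobial genes rose in 19 of 28 and fell in 2, with Slpi, a protease inhibitor of mucosal surfaces, at 69.2, 47.3, 11.7, 8.07 and 26.8 at 2 h and 3391, 2083, 3325, 2297 and 2476 at 24 h. It rose by 4.85 ± 0.22 (limma adjusted p = 7.77e-09). Of 29 genes of STAT3 signalling as in involution, 16 rose and 2 fell. Lysosomal genes, which rise in the involuting gland, were divided with 10 of 37 higher and 13 lower, and their median of 0.00 was -0.25 with median centring and 0.59 with ribosomal protein centring. Ctsl (cathepsin L) rose by 1.93 ± 0.24 (limma adjusted p = 1.86e-05).

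Genes of the glucocorticoid receptor list and the clock moved both ways. Nr3c1, the glucocorticoid receptor, was at 11323, 12304, 11602, 10647 and 11990 at 2 h and 3341, 4147, 4425, 2916 and 3186 at 24 h, and fell by 1.68 ± 0.12 (limma adjusted p = 2.01e-07). Of the 25 genes of its list, receptor included, 10 rose and 6 fell, a share of lower calls near the background, and the median was 0.59. Fkbp5, a sensitive target, fell by 2.21 ± 0.31 from 8434 ± 4545 to 1551 ± 183 (limma adjusted p = 4.93e-05). Its targets Dusp1 and Anxa1, described above, rose. Of 19 clock genes, 3 rose and 6 fell, and the median of -0.31 turned to 0.28 with ribosomal protein centring and 1.30 as a share of all counts. Arntl (BMAL1) fell by 1.76 ± 0.15 and Npas2 by 2.52 ± 0.23, while Arntl2 (BMAL2) rose by 2.74 ± 0.19 (limma adjusted p = 9.85e-07, 1.34e-06 and 1.58e-07). The labels give hours after injection and not the hour of the day, so the clock time of each collection is not known here.

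A set of 196 genes was listed at 0 in every 2 h library and above 0 in every 24 h library. The most abundant were Apod (apolipoprotein D), at 115, 115, 85.5, 138 and 148 at 24 h, and Rgs16, at 120, 69.6, 74.5, 60.4 and 227. Both passed (limma adjusted p = 2.36e-08 and 3.12e-06). Tmprss6 (matriptase-2) ranged from 13.6 to 123 at 24 h (limma adjusted p = 0.00011). The reverse was seen for 1 gene, Ccdc152, at 13.1, 20.4, 7.97, 1.59 and 26.7 at 2 h and 0 throughout at 24 h (limma adjusted p = 0.000402). It was named after its values were seen. Apod, Rgs16, Tmprss6 and Ccdc152 were picked by this separation of the times, so their p values are no independent support for it. Depth overlapped between the times, and milk proteins left a smaller share of it for other genes at 2 h. By the step between low values, 1 read stood for 0.7248 to 2.228 normalised counts at 2 h and 0.5538 to 0.8832 at 24 h. A low level could therefore more easily be listed at 0 at 2 h.

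The change with time was set against that in saline dams, taken from a fit of all 20 libraries. Of the 7877 genes that passed, 7716 differed in the same direction in saline dams (98%), against 85.9% of all genes tested, and the libraries of these comparisons are separate. The difference of the time effects, LPS minus saline, passed for 5 of 14022 genes (0.0357%; 635 had an unadjusted p under 0.05). All 5 had at most 15.3 normalised counts in any LPS library. They were P4ha3 (difference 0.55), a collagen prolyl hydroxylase subunit, Grid2ip (0.99), Aox2 (0.64), Elane (0.51), the neutrophil elastase gene, and Vsig1 (0.46), with limma adjusted p = 0.000256, 0.000256, 0.0114, 0.0114 and 0.0244. P4ha3 was listed at 0 at 2 h and at 7.46, 5.57, 9.29, 4.44 and 6.63 at 24 h in LPS dams. One saline library of postnatal day 11, number 2, lay with the postnatal day 10 libraries (mean correlation 0.981 with them and 0.902 with the others of its day). Without it 4 genes passed (0.0285%; 1204 had an unadjusted p under 0.05), and 98.2% of the passing genes shared their direction. In the fit of all 20 libraries the change with time passed for 7413 of 14022 genes in LPS dams and for 6557 (46.8%) in saline dams, or 7956 of 14020 (56.7%) without that library. For Fasn the change was -4.76 in LPS dams, and -4.14 in saline dams or -5.05 without saline library 2. For Csn2 it was -2.94, against -2.14 or -2.61 without that library. For Anxa2 it was 6.75, against 6.13 or 7.20. For Cxcl1 it was 4.34, against 4.03 or 4.87, and for Hspa5 1.72, against 2.00 or 2.47. Leaving out that library therefore turned the sign of LPS minus saline for Fasn, Anxa2 and Cxcl1. None of these differences between dams passed with all libraries (limma adjusted p of 0.968 to 0.988) or without it (0.447 to 0.971).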

How the data were processed

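RNA of the milk fat layer was sequenced from poly(A)-selected, strand-specific libraries, per the labels' protocols. DESeq2 and rn6 are named as the authors' tool and genome build in the submitters' processing notes. An aligner, a counter and settings were not given in the sources used here. In the deposited table the authors give log2-scale values with 1 lowest value (5.46) shared by all columns, the form of a variance-stabilising transformation, though its name says rlog. The authors' normalised counts were obtained from it by inverting that transformation. Tested against the authors' deposited mean normalised counts of the same day, the inverted values had a Spearman rho across genes of 1 on postnatal day 10 and 0.9982 on day 11, with median ratios of 1.168 and 0.7488. This covered only genes in the authors' tables of significant genes, LPS against saline, 1024 on day 10 and 1085 on day 11. Leaving out the tails, the ratios of genes lay between 1.166 and 1.172 on day 10 and between 0.7016 and 0.9486 on day 11. Such a scale shrinks the differences of rare genes. The share of low values lying less than 0.05 from a whole read was 60.71 to 97.16%, so no count test was run. By chance it would be 10% for a fixed step, but the step of each library was chosen to make this share largest.

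Genes above the lowest value in at least 1 of the 10 LPS libraries were tested on the deposited log2 scale with limma 3.58.1 in R 4.3.3, with a mean-variance trend and Benjamini-Hochberg adjustment over all genes tested. The labels call the 5 libraries of a group biological replicates. The method was tested on simulated data. Shares of counts were compared with an exact two-sided permutation test in scipy 1.17.1. The difference in time effect between LPS and saline dams was an interaction term over all 20 libraries. Of the gene identifiers, 16619 of 16748 are in the RefSeq gene table, and 25 symbols stored as dates were put back. Promoters are RefSeq's (GRCr8), with an entry for 10988 of the genes tested.

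The comparison and the gene lists were chosen with earlier results of these data known. The lists of YAP and TEAD targets, cytoskeleton and membrane linkers, EGF receptor ligands and branched-chain amino acid breakdown, the families of laminins and hemidesmosome genes and of S100 proteins, and the motifs were added after values had been seen. Named genes were drawn from the 12 largest changes in each direction without overlap between groups, the 10 most abundant at each time, up to 3 per list and direction by p, a list of genes set whatever their outcome, and those passing the interaction. That rule gave 390 genes, and only part of them are named, also from the list set whatever the outcome. Genes of that list left out of the Results include Egr1, Per1 and Nr1d1. Their log2 differences were 1.76, -1.14 and -1.10 (limma adjusted p = 0.001, 0.000189 and 0.116). The genes Acly, Angptl4, Apod, Atf3, Bbc3, Cd36, Cidea, Ckap4, Csf1r, Csf3r, Fkbp5, Gbp2, Krt5, Krt14, Mdm2, Ncf1, Rgs16, Slc34a2, Slc3a2, Srebf1, Thrsp, Tmprss6 and Tnfrsf12a lie outside that rule and were named after their values were seen. Other scalings, filters, weights and omissions of single libraries were tried.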

Additional observations from a re-analysis of the deposited data

Results flagged for a closer look

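A sample far from the others of its group was looked for in 378 groups of 5 libraries, 1 per time and gene named in the Results. It was found in 13, while chance flags about 1 in 20 groups. At 2 h, library 1 stood apart in Xdh (160577 normalised counts, the lowest), Timp1 (117, the highest), Fosl1 (47.6, the highest) and Csf1r (102, the highest). Library 3 of the same time stood apart in Arntl2 (73.8 normalised counts), Bcat1 (2.17) and Grid2ip (0.723). At 24 h, the separate values were those of library 1 in Fos (1091 normalised counts), library 2 in Cd14 (2171) and Grid2ip (2.78), library 3 in Fkbp5 (1233), and library 4 in Anxa5 (12437) and Erbb4 (0, where the others lay between 10.6 and 13).

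The change from 2 h to 24 h differed between LPS and saline dams by the interaction term of limma for 5 genes. These were Grid2ip (0.99, LPS minus saline), Aox2 (0.64), P4ha3 (0.55), Elane (0.51) and Vsig1 (0.46), all at the level of a few reads.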

How the results depend on the processing

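The number of genes passing stayed between 6636 and 10601 under the other scalings, filters, weights and fits, and between 7440 and 7845 when each library was left out in turn (4334 to 4635 higher, 3086 to 3210 lower). A minimum log2 difference of 1 left 3034 genes, 1772 higher and 1262 lower. The split by direction depended on the scaling, with 3067 higher and 5019 lower under median centring, 9347 and 1254 under ribosomal protein centring, and 10021 and 344 as a share of all counts, an alternative added after the data were seen. The difference in milk protein share lay between -41.4 and -37.5 points without each library in turn.

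Directions that turned were as follows. As a share of all counts, the log2 difference became positive for Anxa6 (0.37), Asns (0.73), Atf4 (1.64), Cebpd (0.84), Fos (1.09), Il18r1 (0.57), Nfkbia (0.84), Psmb8 (0.13), Tf (0.01) and Xbp1 (0.03). After quantile normalisation it turned for Atf4 (0.43), Csn2 (0.02), Krt5 (-0.15) and Tf (0.10), with ribosomal protein centring for Atf4 (0.58) and Fos (0.11), and with median centring for Il6 (-0.11) and Stat3 (-0.21). Without single libraries it turned for Atf4 (range over all omissions -0.07 to 0.05) and Stat3 (-0.14 to 0.30), which passed in none of these. The causes were not tested. No paired analysis was possible because the value columns name no dam, and the replicate numbers of the 2 times were not tied to dams.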
